A study of Mus musculus with 12 samples.

Results

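Alpha and beta tubulin are the subunits of microtubules, and 10 of their genes were followed across a cerulein experiment in mouse pancreas. They are the alpha genes Tuba1a, Tuba1b, Tuba1c and Tuba4a and the beta genes Tubb2a, Tubb2b, Tubb3, Tubb4b, Tubb5 and Tubb6, chosen by symbol among 49585 Ensembl genes listed. All 10 had enough reads to be tested. The rule is a list of symbols, drawn up with earlier results of these data known. RNA of whole pancreas was sequenced in 12 libraries, 1 animal each, from mice 2 to 4 months old that received 4 injections and were sampled at 4 h. Labelled Atf3-/- mice (congenic with C57Bl6, here KO) given cerulein at 50 ug/kg an injection are libraries C2, L4 and C3. KO mice given saline are S1, K4 and Q1. Control C57Bl6 mice (WT) given cerulein at the same dose are O1, O3 and N3, and WT mice given saline are W1, K5 and R3. Cerulein is an analogue of the gut hormone cholecystokinin, and repeated high doses provoke acute pancreatitis in mice. The labels do not say which part of Atf3 was deleted.

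The libraries held 18292997 to 32158629 counts. Atf3 was not lower in KO libraries: it stood at 1374 CPM in C2, 1635 CPM in L4 and 20.7 CPM in C3, against 7.43 to 23.1 CPM in KO saline, 393 to 775 CPM in WT cerulein and 1.13 to 5.27 CPM in WT saline. CPM are counts scaled to 1000000 per library after TMM, edgeR's correction for library composition. The genotype is therefore used as labelled, with no check from these counts. Library C3 stood with the saline libraries: on the first principal component, which held 56.3% of the variance, it lay at -55.9, with the 6 saline libraries at -58.8 to -46.4 and the other 5 cerulein libraries at 61.9 to 86.1. Each KO cerulein result is given with and without it. The tissue label was checked against 10 acinar markers, which together made up 213577 to 445682 CPM. In bulk tissue, fewer cells of a type and less RNA per cell cannot be told apart.

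An alpha and a beta subunit form a dimer, and dimers join head to tail into the wall of a microtubule. Mammals have several genes for each subunit whose products differ mainly in the acidic tail at the carboxyl end, where enzymes add or remove tyrosine, glutamate and glycine residues and where motors and associated proteins dock. In pancreatic acinar cells microtubules serve the transport of secretory vesicles and zymogen granules toward the apical membrane. Tubulin mRNA is also controlled by its own product: work in human cells showed that excess free dimer triggers decay of tubulin mRNA during translation, through a factor that reads the first residues of the new chain.

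The coding ends show what the isoforms share and where they part, and so which reads can be told apart. The first 12 coding bases are printed below with the start codon in lower case and the next 3 codons, which encode the residues read in autoregulation, in capitals. All printed sequences are 5′ to 3′ on the coding strand, from GENCODE M21 on GRCm38.
Tuba1a, Tuba1b and Tuba1c: atgCGTGAGTGC
Tuba4a: atgCGCGAGTGC
Tubb4b and Tubb3: atgAGGGAGATC
Tubb5: atgAGGGAAATC
Tubb2a: atgCGCGAGATC
Tubb2b: atgCGAGAGATC
The 3 Tuba1 genes share these bases exactly, and in all 4 alpha genes an intron splits the stretch. Each alpha and beta gene here has 4 exons in the transcript used. The last 60 coding bases encode the acidic tail, shown for Tuba1c, the alpha gene called in WT, and for Tuba4a, and the capitals mark the last sense codon and the stop codon.
Tuba1c, chr15:99037950-99038009, plus strand: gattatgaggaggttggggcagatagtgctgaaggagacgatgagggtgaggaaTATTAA
Tuba4a, chr1:75215622-75215681, minus strand: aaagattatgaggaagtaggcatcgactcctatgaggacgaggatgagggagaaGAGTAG
The last sense codon is a tyrosine codon in Tuba1c and a glutamate codon in Tuba4a, the alpha isoform known for being made without the terminal tyrosine. The beta tails follow in the same form.
Tubb4b, chr2:25222308-25222367, minus strand: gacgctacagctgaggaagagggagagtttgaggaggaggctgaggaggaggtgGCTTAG
Tubb5, chr17:35834982-35835041, minus strand: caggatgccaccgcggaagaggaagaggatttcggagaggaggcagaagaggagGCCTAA
Tubb2a, chr13:34074468-34074527, minus strand: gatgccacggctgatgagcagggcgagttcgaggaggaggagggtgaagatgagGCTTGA
Tubb2b, chr13:34127471-34127530, minus strand: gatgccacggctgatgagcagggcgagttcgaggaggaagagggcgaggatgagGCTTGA
Tubb3, chr8:123421623-123421682, plus strand: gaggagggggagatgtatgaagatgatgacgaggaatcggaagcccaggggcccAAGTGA
Tubb2a and Tubb2b lie beside each other on chromosome 13, as the 3 Tuba1 genes lie within 1 stretch of chromosome 15.

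The closeness of these genes limits how far their counts can be assigned. Over aligned coding bases, Tuba1b was 98.4% identical to Tuba1c and 98.3% to Tuba1a, and Tuba1a was 97.6% identical to Tuba1c. Tuba4a matched the Tuba1 genes at 85.3% to 85.6%. Tubb2a and Tubb2b were 96.5% identical, and the other beta pairs 80.8% to 86.3%. Of all 50-base windows of the transcript, 73.0% in Tuba1b, 64.3% in Tuba1a and 61.0% in Tuba1c also occur in another annotated transcript, among them those of the sister genes and of pseudogenes. The shares were 55.5% for Tubb4b, mainly with its 2 pseudogenes Tubb4b-ps1 and Tubb4b-ps2, 45.6% for Tubb2a and 33.4% for Tubb2b. They were 0.12% for Tubb5 and 0% for Tubb3 and Tubb6. Tuba4a shared 48.8% of windows, nearly all with Stk16 on the opposite strand, and 1.11% on its own strand. How reads matching several genes were counted, and whether strand was used, is not given in the sources used here. Counts of the Tuba1 trio, of the Tubb2 pair and of Tubb4b are uncertain to that degree, and those of Tuba4a too if strand was not used. Stk16 itself stood at 13.5 to 20.4 CPM in all libraries, and Tubb4b-ps1 at 0.0394 to 0.981 CPM.

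**Figure D1:**
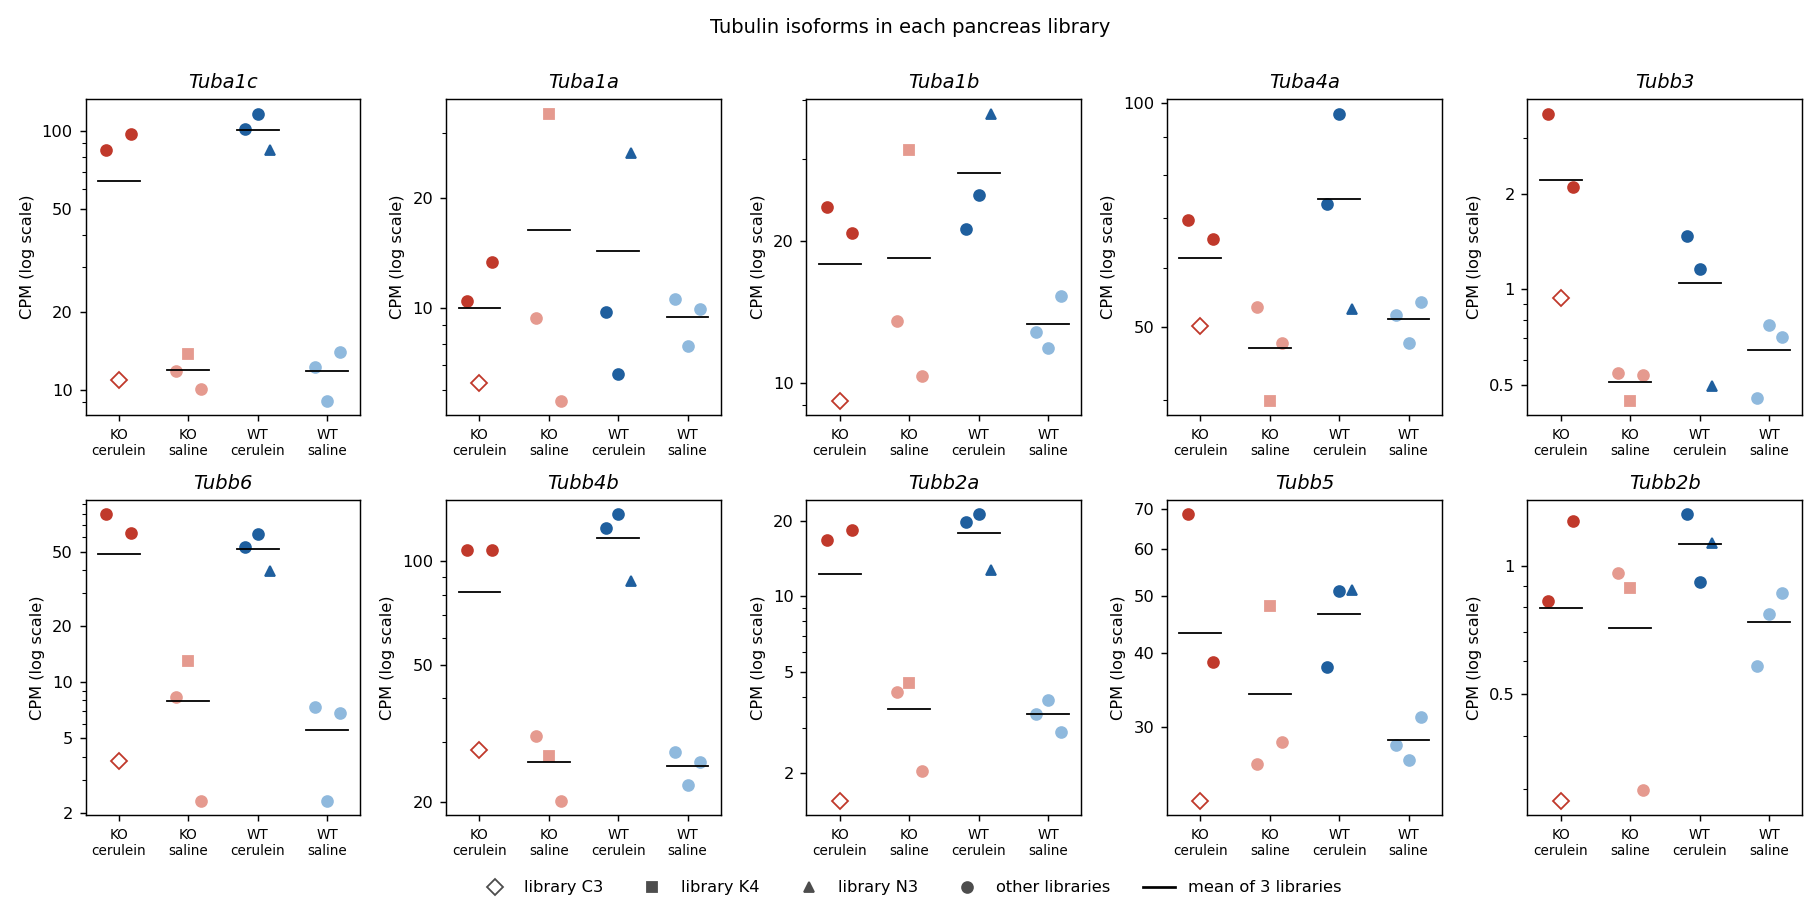
Each panel shows 1 gene, with CPM on a log axis, 1 point per library, and a line at the mean of the 3 libraries of the group. C3 (open diamond) is drawn apart in KO cerulein, K4 (square) and N3 (triangle) mark the libraries that stood high for Tuba1a and Tuba1b. For Tuba1c, Tubb6, Tubb4b and Tubb2a the cerulein libraries other than C3 lie above all 6 saline libraries.

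In WT pancreas, cerulein was followed by higher RNA of Tuba1c, Tubb6, Tubb2a and Tubb4b, with log2 fold changes of 2.19 for Tubb4b to 3.23 for Tubb6. No member fell. The 4 called members are 1 of 4 alpha genes and 3 of 6 beta genes, and 17.9% of the 14329 genes tested were called higher and 12.8% lower in the same contrast. Without C3 the WT contrast called 5 members (the 4 and Tuba1b), against 21.3% of all genes higher and 16.6% lower. DESeq2 called the same 5 with all libraries, against 20.2% higher and 14.7% lower. The other 6 members had positive fold changes that did not pass. A call means that the p of edgeR's quasi-likelihood test (two-sided), adjusted by Benjamini and Hochberg's method across the whole table of tested genes, was under 0.05. Fold changes carry their standard error.

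Tuba1c, a widely expressed alpha isoform (ENSMUSG00000043091, chr15:99029891-99038110), had 102 CPM in O1, 117 CPM in O3 and 84.7 CPM in N3 of WT cerulein, against 12.3 CPM in W1, 9.14 CPM in K5 and 14.1 CPM in R3 of WT saline. The lowest WT cerulein library was far above the highest WT saline library. Its log2 fold change was 3.10 ± 0.61 (edgeR adjusted p = 0.00918), and the call held when any 1 of the 12 libraries was left out. The group means were 101 ± 16.3 CPM in WT cerulein and 11.8 ± 2.52 CPM in WT saline (SD, n = 3 each).

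Tubb4b, a widely expressed beta isoform that is also abundant in cilia (ENSMUSG00000036752, chr2:25222160-25224702), had 125 CPM in O1, 137 CPM in O3 and 87.6 CPM in N3 of WT cerulein, against 28.0 CPM in W1, 22.4 CPM in K5 and 26.1 CPM in R3 of WT saline. The groups did not overlap, and N3 was the lowest of the WT cerulein libraries, as it was for Tuba1c. Its log2 change was 2.19 ± 0.43 (edgeR adjusted p = 0.00918), and this call too held without any 1 library. Summed ciliated cell markers, 6 genes, stood at 2.72 to 3.64 CPM in WT cerulein and 3.62 to 4.65 CPM in WT saline, and none of the 3 that could be tested passed.

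Tubb6, a beta isoform present in many tissues (ENSMUSG00000001473), had 53.4 CPM in O1, 62.5 CPM in O3 and 39.6 CPM in N3 of WT cerulein, against 7.37 CPM in W1, 2.31 CPM in K5 and 6.89 CPM in R3 of WT saline. The groups were well apart, and the WT saline values were uneven, with K5 lowest. Its log2 fold change of 3.23 ± 0.93 was the largest of the members in WT (edgeR adjusted p = 0.0250). Tubb2a, a beta isoform best known from brain but found in many cells (ENSMUSG00000058672, chr13:34074274-34078007), had 19.7 CPM in O1, 21.2 CPM in O3 and 12.7 CPM in N3 of WT cerulein, against 3.43 CPM in W1, 3.90 CPM in K5 and 2.91 CPM in R3 of WT saline. Again no libraries overlapped. Its log2 change was 2.39 ± 0.68 (edgeR adjusted p = 0.0236). The calls of Tubb6 and Tubb2a were lost when W1, K5, R3, O1 or O3 was left out of the 12-library fit, with edgeR adjusted p up to 0.0876 for Tubb6 and 0.0818 for Tubb2a, while their fold changes stayed between 2.86 and 3.49 for Tubb6 and between 2.25 and 2.59 for Tubb2a on the log2 scale. In the fit without C3 the spread shared by all groups was smaller, and the edgeR adjusted p was 0.00218 for Tubb6 and 0.000131 for Tubb2a.

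Among the 6 members not called in WT, Tuba1b came nearest the threshold. Tuba1b, a widely expressed alpha isoform (ENSMUSG00000023004, chr15:98931425-98934565), had 21.3 CPM in O1, 25.2 CPM in O3 and 37.4 CPM in N3 of WT cerulein, against 12.9 CPM in W1, 11.9 CPM in K5 and 15.3 CPM in R3 of WT saline. The groups did not overlap, and N3 was highest. The log2 fold change was 1.06 ± 0.44 (edgeR adjusted p = 0.0857), and it passed without C3 (0.0466), without K4 (0.0425) and by DESeq2 (0.0470). It passed too when only the WT groups were fitted.

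Tubb5, a widely expressed beta isoform (ENSMUSG00000001525, chr17:35833921-35838306), had 38.0 CPM in O1, 51.0 CPM in O3 and 51.1 CPM in N3 of WT cerulein, against 28.1 CPM in W1, 26.4 CPM in K5 and 31.3 CPM in R3 of WT saline. The groups did not overlap, and the log2 fold change was 0.71 ± 0.36 (edgeR adjusted p = 0.157). This gene passed when only the WT groups were fitted. Tuba4a (ENSMUSG00000026202, chr1:75214228-75219865) had 73.3 CPM in O1, 96.7 CPM in O3 and 53.0 CPM in N3 of WT cerulein, against 51.9 CPM in W1, 47.7 CPM in K5 and 54.1 CPM in R3 of WT saline. Here N3 fell within the range of WT saline, and the log2 fold change was 0.54 ± 0.23 (edgeR adjusted p = 0.0923). Without N3 it was 0.73 ± 0.21 and passed (edgeR adjusted p = 0.0310). It passed too with library totals in place of TMM.

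Tuba1a, the main alpha isoform of developing neurons (ENSMUSG00000072235, chr15:98949837-98953703), had 9.79 CPM in O1, 6.63 CPM in O3 and 26.5 CPM in N3 of WT cerulein, against 10.6 CPM in W1, 7.91 CPM in K5 and 9.96 CPM in R3 of WT saline. The groups overlapped, and only N3 was above WT saline. The log2 fold change was 0.59 ± 0.65 (edgeR adjusted p = 0.518), and it was -0.20 without N3. Tubb3, the beta isoform used as a marker of neurons (ENSMUSG00000062380, chr8:123411424-123422015), and Tubb2b, a beta isoform best known from developing brain (ENSMUSG00000045136, chr13:34126748-34130466), were scarce, with 14 to 40 counts and 19 to 36 counts a library in WT cerulein, and 7 to 18 counts and 9 to 22 counts in WT saline. Their log2 fold changes of 0.68 ± 0.52 for Tubb3 and 0.60 ± 0.54 for Tubb2b did not pass (edgeR adjusted p = 0.352 and 0.425). In WT, 7 of 10 members had every cerulein library above every saline library, which held for 27.5% of all genes tested, with 24.9% the other way.

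In KO pancreas, C2 and L4 showed the same 4 isoforms high, and C3 did not. Tubb3 was high in C2 and L4 besides, with C3 at 0.937 CPM, below them but above all 6 saline libraries. Without C3, Tuba1c, Tubb6, Tubb2a, Tubb4b and Tubb3 were called higher, 5 of 10 members, against 18.7% of all genes called higher and 10.5% lower in that fit. With C3, edgeR called none of the 10 and 0% of all genes. At an unadjusted p under 0.05 the 12-library fit had 5 members, the same ones, and DESeq2 called 4 of them (Tuba1c, Tubb3, Tubb4b and Tubb6), against 8.48% of all genes called higher and 0.817% lower. The cerulein comparisons in KO and in WT share no library.

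Tuba1c had 84.9 CPM in C2, 97.9 CPM in L4 and 11.0 CPM in C3 of KO cerulein, against 11.9 CPM in S1, 13.8 CPM in K4 and 10.1 CPM in Q1 of KO saline. C2 and L4 lay within the range of WT cerulein, and C3 lay among the saline libraries. Without C3 the log2 fold change was 2.93 ± 0.22 (edgeR adjusted p = 1.38e-05), and with C3 it was 2.43 ± 0.59 (0.0860).

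Tubb4b had 107 CPM in C2, 107 CPM in L4 and 28.4 CPM in C3 of KO cerulein, against 31.0 CPM in S1, 27.2 CPM in K4 and 20.2 CPM in Q1 of KO saline. Again C3 was within the saline range. The log2 fold change was 2.04 ± 0.22 without C3 (edgeR adjusted p = 0.000115) and 1.63 ± 0.42 with C3 (0.0860).

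Tubb6 had 79.9 CPM in C2, 63.1 CPM in L4 and 3.80 CPM in C3 of KO cerulein, against 8.33 CPM in S1, 13.04 CPM in K4 and 2.32 CPM in Q1 of KO saline. C2 and L4 were above every other library of the series, and C3 was again among the saline libraries. On the log2 scale the change was 3.17 ± 0.61 without C3 (edgeR adjusted p = 0.00421) and 2.63 ± 0.90 with C3 (0.127). Tubb2a had 16.8 CPM in C2, 18.4 CPM in L4 and 1.55 CPM in C3 of KO cerulein, against 4.18 CPM in S1, 4.54 CPM in K4 and 2.02 CPM in Q1 of KO saline. For this gene C3 was the lowest of the 12 libraries. It was lowest too for Tuba1b (9.19 CPM), Tubb2b (0.281 CPM) and Tubb5 (22.5 CPM). Of the 10 members, C3 lay within the range of the 6 saline libraries for 5 and below it for 4. The log2 fold change of Tubb2a was 2.28 ± 0.31 without C3 (edgeR adjusted p = 0.000389) and 1.77 ± 0.66 with C3 (0.154).

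Tubb3 had 3.59 CPM in C2, 2.11 CPM in L4 and 0.937 CPM in C3 of KO cerulein (95, 81 and 20 counts), against 0.544 CPM in S1, 0.445 CPM in K4 and 0.536 CPM in Q1 of KO saline (13, 10 and 9 counts). It was the only member whose KO groups did not overlap with C3 included, which held for 9.41% of all genes tested, with 6.35% the other way. The log2 fold change was 2.47 ± 0.47 without C3 (edgeR adjusted p = 0.00283) and 2.11 ± 0.53 with C3 (0.0860). Neuron and glia markers, 12 genes none of which was at 0 in every library, summed to 2.72 to 17.8 CPM in KO cerulein and 2.51 to 3.57 CPM in KO saline, and to 3.18 to 7.07 CPM in WT cerulein and 2.97 to 5.85 CPM in WT saline. The highest was L4, which also held the most islet marker RNA, at 12152 CPM over 10 genes against 475 to 3727 CPM in the other libraries. Tubb3 was highest in C2, where the neuron and glia markers summed to 5.44 CPM and the islet markers to 1376 CPM. In KO without C3, 3 of 7 tested neuron and glia markers and 5 of 10 islet markers were called higher, beside 18.7% of genes. With C3, 0 of either list were called. Their part in the Tubb3 difference was not tested.

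The other 5 members did not pass in KO in either fit. Tuba4a had 69.8 CPM in C2, 65.8 CPM in L4 and 50.1 CPM in C3 of KO cerulein, against 53.2 CPM in S1, 39.9 CPM in K4 and 47.6 CPM in Q1 of KO saline, and its log2 fold change was 0.53 ± 0.23 without C3 (edgeR adjusted p = 0.103) and 0.40 ± 0.23 with it (0.297). Tubb5 had 68.7 CPM in C2, 38.7 CPM in L4 and 22.5 CPM in C3 of KO cerulein, against 26.0 CPM in S1, 48.1 CPM in K4 and 28.4 CPM in Q1 of KO saline. Its groups overlapped through K4, also without C3, and its log2 fold change was 0.65 ± 0.29 without C3 (edgeR adjusted p = 0.121) and 0.34 ± 0.36 with it (0.559). Tuba1a, Tuba1b and Tubb2b likewise overlapped. For Tuba1a the log2 fold change was -0.45 ± 0.74 without C3 and -0.70 ± 0.64 with it. Tuba1b turned with C3, at 0.27 ± 0.41 without it and -0.04 ± 0.43 with it. Tubb2b was at 0.54 ± 0.47 without C3 and 0.16 ± 0.53 with it. With C3 left out, 6 of 10 members did not overlap (the 5 called ones and Tuba4a), against 29.3% of all genes, with 23.7% the other way.

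**Figure D2:**
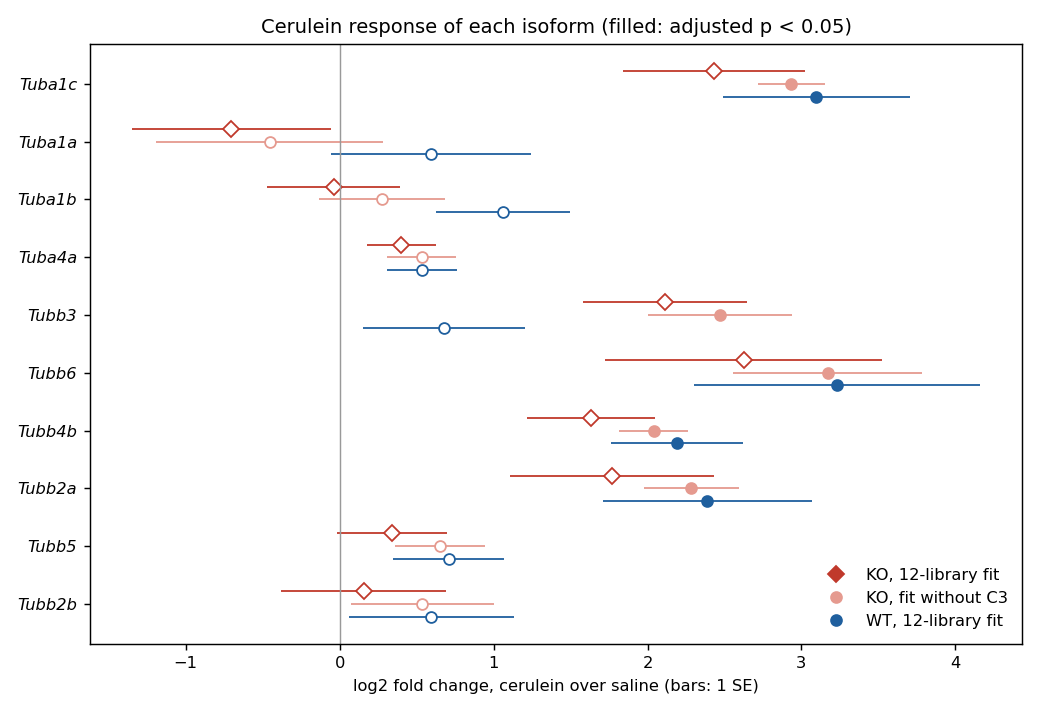
Log2 fold change of cerulein over saline for each gene, with bars of 1 SE. KO is shown in the 12-library fit and in the fit without C3, WT in the 12-library fit. Filled points passed an adjusted p of 0.05. Tuba1c, Tubb6, Tubb4b and Tubb2a lie between 2.04 and 3.23 in WT and in KO without C3, and Tubb3 passes only in KO without C3.

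The genotype comparisons called no member, and edgeR called 0% of all genes in each of them, so a count of 0 says nothing particular about tubulins. In saline, KO minus WT log2 differences ran from -0.35 for Tubb3 to 0.79 for Tuba1a, with edgeR adjusted p of 1 for every member, 0 members at an unadjusted p under 0.05, and 0 by DESeq2, which also called 0% of all genes there. No member had groups without overlap in saline, where 2.09% of all genes had KO above WT and 2.74% below. In cerulein, the 12-library KO minus WT differences ran from -0.65 for Tuba1c to 1.09 for Tubb3, with 0 members at an unadjusted p under 0.05. DESeq2 called 0 members there, and 0.0489% of all genes higher and 0.0279% lower. With all libraries no member was without overlap, against 5.47% of all genes above and 4.29% below. Without C3, Tubb3 was the one member at an unadjusted p under 0.05 (0.00817), with a log2 difference of 1.44 ± 0.45 and an edgeR adjusted p of 0.929. Tubb3 and Tubb6 then had both KO cerulein libraries above all WT cerulein libraries, as had 9.51% of all genes, with 6.53% the other way.

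The test of whether the cerulein response itself differed between KO and WT (the interaction) also called 0 members and 0 genes by edgeR, and DESeq2 called 0 members and 0.00698% of all genes. Unadjusted p was under 0.05 for 0 members with C3 and for Tubb3 alone without it. For the 4 isoforms called in WT, the KO minus WT difference of responses without C3 was -0.16 ± 0.29 for Tuba1c, -0.15 ± 0.30 for Tubb4b, -0.11 ± 0.42 for Tubb2a and -0.06 ± 0.81 for Tubb6. With C3 the same differences were -0.66 ± 0.80 for Tuba1c, -0.56 ± 0.58 for Tubb4b, -0.62 ± 0.92 for Tubb2a and -0.61 ± 1.21 for Tubb6. For Tubb3 it was 1.80 ± 0.64 without C3 and 1.44 ± 0.74 with C3 (edgeR adjusted p = 1 and 0.811). These errors allow sizeable differences in either direction, so the responses are not shown to be alike. A call of Tubb3 in KO and none in WT is no difference between the genotypes by this test.

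Tuba1a and Tuba1b were highest in 1 WT cerulein and 1 KO saline library. Tuba1a had 26.5 CPM in N3 (WT cerulein) and 34.0 CPM in K4 (KO saline), against 5.60 to 13.4 CPM in the other 10 libraries. Tuba1b was highest in the same 2 libraries, N3 at 37.4 CPM and K4 at 31.3 CPM. Tubb5 had 51.1 CPM in N3, level with O3 at 51.0 CPM, and was highest in C2 at 68.7 CPM. In K4 it had 48.1 CPM, above S1 and Q1 of the same group. The 10 leucocyte markers, none at 0 in every library, summed to 705 CPM in N3 and 478 CPM in K4, against 40.1 to 229 CPM elsewhere. By group their range was 40.1 to 145 CPM in KO cerulein, 47.8 to 478 CPM in KO saline, 123 to 705 CPM in WT cerulein and 99.7 to 229 CPM in WT saline. The 5 adipocyte markers summed to 349 CPM in N3 and 408 CPM in K4, against 29.5 to 136 CPM elsewhere. Their part in the Tuba1a and Tuba1b values was not tested. The fold change of Tuba1a turned with these libraries: in WT it was 0.59 with N3 and -0.20 without, and in KO it was -0.70 with K4 and 0.38 without. Tuba1c did not stand out in either library, where it had 84.7 CPM (N3) and 13.8 CPM (K4).

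**Figure D3:**
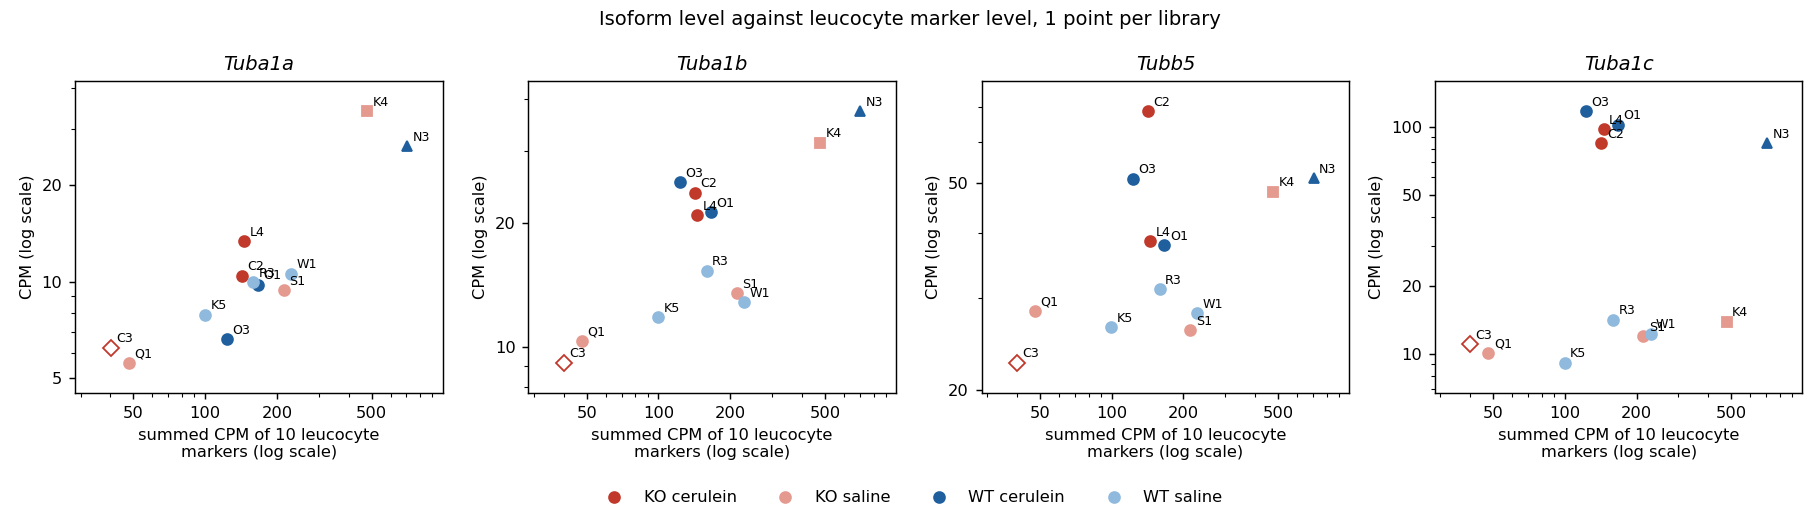
CPM of 4 isoforms against the summed CPM of 10 leucocyte markers, both on log axes, 1 point per library, coloured by group. N3 and K4 lie at the upper right for Tuba1a and Tuba1b, while Tuba1c separates into the 5 cerulein libraries other than C3 at 84.7 CPM and above and the rest at 14.1 CPM and below.

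The marker sums of ducts and acinar cells differed between cerulein and saline in WT. Duct markers, 6 genes, summed to 31.7 to 123 CPM in KO cerulein and 28.8 to 31.7 CPM in KO saline, and to 158 to 240 CPM in WT cerulein and 32.6 to 35.7 CPM in WT saline. Of the 6, 3 were called higher in WT, beside 17.9% of all genes, with Sox9 at a log2 fold change of 3.50 and Krt19 at 3.22. The duct count was 2 to 3 when any 1 WT library was left out, 2 with no filter on low counts and 4 without C3. The 10 acinar markers ran from 213577 to 268409 CPM in WT cerulein and from 319983 to 370561 CPM in WT saline, with 5 of 10 called lower, beside 12.8% of all genes. That count was 0 to 2 when any 1 WT library was left out, 2 with no filter on low counts and 7 without C3. The part of either in the tubulin differences was not tested. Markers of cycling cells, 5 genes, summed to 0.677 to 9.83 CPM in WT cerulein and 2.91 to 5.88 CPM in WT saline, and none of the 4 that could be tested passed.

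To compare isoforms with one another, CPM were divided by the length of each gene's merged exons in kilobases (CPM per kb). On this scale the sum of the 10 genes was 192 in C2, 181 in L4 and 50.3 in C3 of KO cerulein, against 61.4 in S1, 88.7 in K4 and 46.8 in Q1 of KO saline. It was 188 in O1, 215 in O3 and 168 in N3 of WT cerulein, against 59.6 in W1, 50.4 in K5 and 61.8 in R3 of WT saline. The mean over libraries was 3.33-fold higher in WT cerulein than in WT saline. In KO the ratio was 2.84 without C3 and 2.15 with it. In WT the beta sum was 3.99-fold and the alpha sum 2.78-fold higher in cerulein. The ratio of alpha to beta level was 0.632 in C2, 0.775 in L4 and 1.14 in C3 of KO cerulein against 1.09 to 1.44 in KO saline, and 0.762 to 1.05 in WT cerulein against 1.17 to 1.26 in WT saline. These sums are descriptions, with no test.

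The makeup of the alpha pool, taken as the 4 genes here, was different in cerulein. Tuba1c made up 50.8 ± 6.70% of the alpha level in WT cerulein and 16.4 ± 1.74% in WT saline (SD, n = 3 each). In KO cerulein its share was 49.9% in C2, 54.1% in L4 and 18.02% in C3, against 11.6% to 17.1% in KO saline. Tuba4a held 22.9 ± 5.64% in WT cerulein and 44.2 ± 2.23% in WT saline, although its CPM did not fall. The shares depended on the length used: Tuba4a held 32.4% in WT cerulein and 58.4% in WT saline on coding length. On windows that no other gene shares on the same strand (unshared windows), it held 11.1% and 24.1% in the same groups. For Tuba4a this length counts 2760 of 2791 windows, so it includes those shared with Stk16 on the opposite strand. Tuba1c held 47.4% in WT cerulein and 14.2% in WT saline on coding length, and 55.4% and 20.1% on unshared windows. Tuba1a held 17.1% in N3 and 36.0% in K4. In WT cerulein O1 and O3 it held 6.67% and 3.89%, against 15.9% to 18.3% in WT saline.

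Tubb4b was the leading beta gene on merged exon length in every library but K4, where Tubb5 held 39.8% and Tubb4b 35.9%, with 53.8 ± 2.56% of the beta level in WT cerulein and 47.2 ± 1.49% in WT saline. Tubb6 and Tubb5 changed places behind it. Tubb6 held 20.5 ± 0.72% in WT cerulein and 8.51 ± 3.78% in WT saline, and Tubb5 held 14.02 ± 4.16% in WT cerulein and 33.3 ± 2.28% in WT saline. On unshared windows Tubb6 held 13.5% in WT cerulein and 5.96% in WT saline, and Tubb5 held 8.33% in WT cerulein and 20.96% in WT saline. In KO cerulein Tubb6 held 27.9% in C2, 25.4% in L4 and 6.62% in C3, against 4.57% to 14.7% in KO saline. Tubb5 held 17.6% in C2, 11.4% in L4 and 28.8% in C3, against 26.6% to 41.0% in KO saline. Tubb3 and Tubb2b were minor in every library, at most 2.13% and 1.47% of the beta level.

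**Figure D4:**
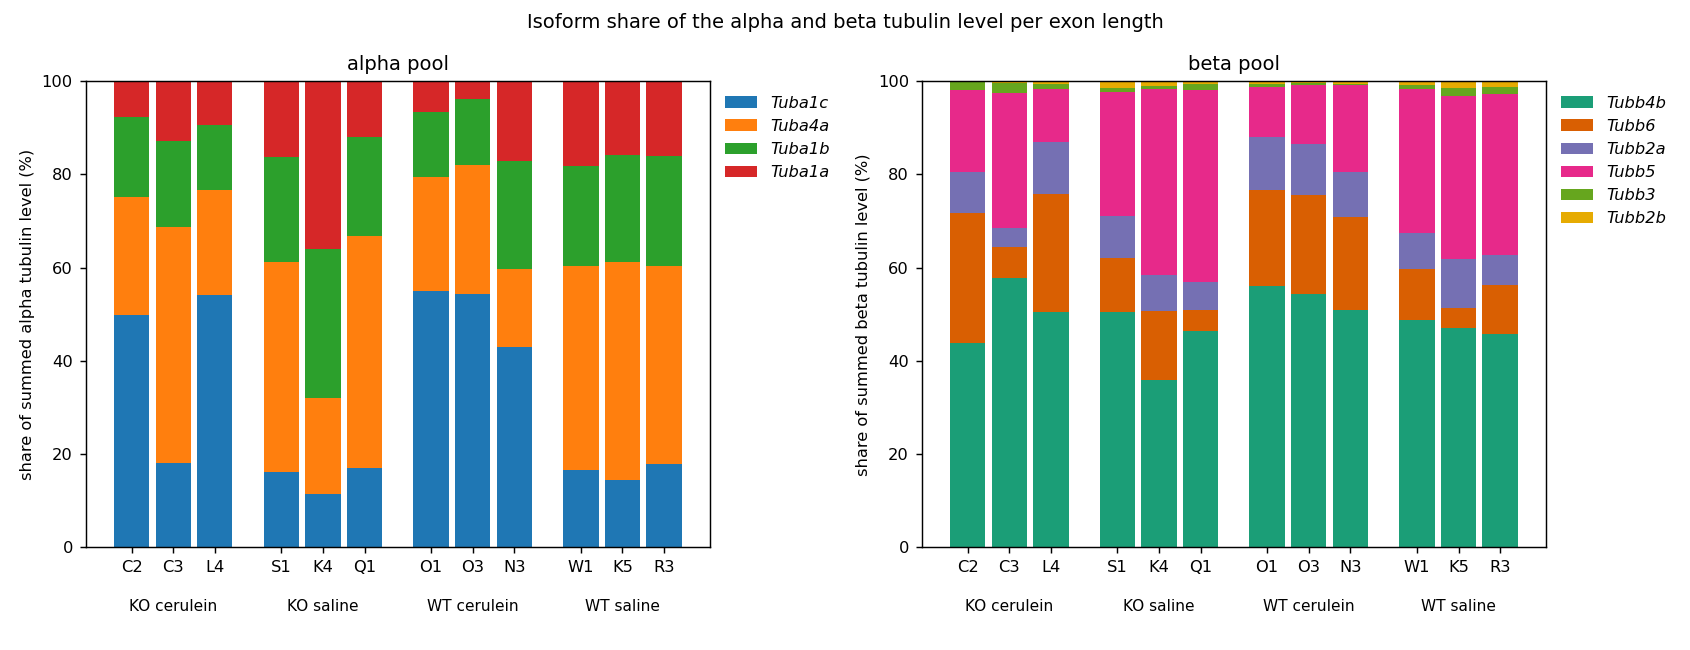
Stacked bars give each gene's share (%) of the summed alpha level (left) or beta level (right), in CPM per kb of merged exons, for each of the 12 libraries. In the cerulein libraries other than C3, Tuba1c takes 43.1% to 55.1% of the alpha level and Tubb6 takes 19.8% to 27.9% of the beta level, while in C3 they take 18.02% and 6.62%.

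By mean level per kb, the order in WT cerulein was Tubb4b (55.8), Tuba1c (44.4), Tubb6 (21.3), Tuba4a (20.1), Tuba1b (14.9), Tubb5 (14.03), Tubb2a (11.1), Tuba1a (7.93), Tubb3 (0.558) and Tubb2b (0.491). The libraries of Tuba1c and Tubb6, and of Tuba1a and Tubb3, did not overlap, and all other neighbours in that order did. In WT saline the order was Tuba4a (13.8), Tubb4b (12.2), Tubb5 (8.59), Tuba1b (7.12), Tuba1a (5.26), Tuba1c (5.18), Tubb6 (2.27), Tubb2a (2.12), Tubb3 (0.345) and Tubb2b (0.322). Overlapping neighbours there were Tuba4a and Tubb4b, Tubb5 and Tuba1b, Tuba1a and Tuba1c, Tubb6 and Tubb2a, and Tubb3 and Tubb2b. In KO cerulein, C3 included, Tubb4b, Tuba1c and Tubb6 also came first, and in KO saline Tuba4a, Tubb4b and Tubb5. The order depended on the length used. With coding length Tubb5 stood above Tubb4b in both saline groups. With only the windows that no other gene shares on the same strand, Tuba1b led the alpha genes in saline. That length keeps the Tuba4a windows shared with Stk16 on the opposite strand, and the order with these left out was not computed. Tuba1c led the alpha genes in both cerulein groups under all 3 lengths.

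Profiles over the 12 libraries were compared as the root mean square difference of log2 CPM, each gene centred on its own mean, so a smaller value means more alike. The closest members were Tuba1b and Tubb5, at 0.302, then Tubb2a and Tubb4b at 0.436 and Tubb5 and Tuba4a at 0.437. Tuba1c lay nearest Tubb2a, at 0.477, and not its near-identical sister Tuba1b. The farthest pair was Tuba1a and Tubb6, at 1.72. Among 5492 genes with a mean of at least 10 CPM, the 2 nearest to Tuba1c were Rhob (0.200), a small GTPase, and Ptpn23 (0.203), a phosphatase-family protein of endosomal sorting. Nearest to Tubb4b were Ppfibp1 (0.136), a liprin, and Ehd4 (0.143), an endocytic ATPase. These are descriptions over libraries that share a treatment, with no test.

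The stretches upstream of the called genes were read for short motifs, since 4 members moved together. Promoters of 8 members (none used for Tubb2b or Tubb6) were taken from RefSeq, GRCm38.p6, from 250 bases before to 50 bases after the start. The 250 bases before the start of the 3 called genes with an entry are printed with motif letters in capitals on either strand.
Tuba1c, chr15:99029641-99029890, plus strand: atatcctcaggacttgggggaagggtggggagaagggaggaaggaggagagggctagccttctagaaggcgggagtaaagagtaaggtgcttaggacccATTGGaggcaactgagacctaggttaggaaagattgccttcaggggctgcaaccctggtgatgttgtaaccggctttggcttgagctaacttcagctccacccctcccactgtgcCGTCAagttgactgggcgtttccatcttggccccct
Tubb2a, chr13:34078009-34078258, minus strand: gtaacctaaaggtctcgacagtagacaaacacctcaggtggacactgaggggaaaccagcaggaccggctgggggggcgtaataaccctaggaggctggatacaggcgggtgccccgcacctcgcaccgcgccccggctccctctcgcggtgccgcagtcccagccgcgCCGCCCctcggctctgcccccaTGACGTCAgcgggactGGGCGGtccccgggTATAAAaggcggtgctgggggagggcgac
Tubb4b, chr2:25224703-25224952, minus strand: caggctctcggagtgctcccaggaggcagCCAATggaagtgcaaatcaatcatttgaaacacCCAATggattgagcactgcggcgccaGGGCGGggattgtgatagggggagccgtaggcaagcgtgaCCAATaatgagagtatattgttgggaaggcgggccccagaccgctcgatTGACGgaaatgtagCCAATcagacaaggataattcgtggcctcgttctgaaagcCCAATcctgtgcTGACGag
The cAMP response element half-site (TGACG), the core of sites bound by the CREB and ATF families, was in the 300-base promoters of Tuba1c, Tuba4a, Tubb2a and Tubb4b, 4 of 8, and in 20.8% of all 32851 promoters. In Tubb2a its matches on both strands overlap as 1 palindrome. The CCAAT box (CCAAT) was in 5 of 8 against 37.4% of all, with 5 copies in Tubb4b. The GC box (GGGCGG) was in 7 of 8 against 35.7%, and the TATA box (TATAAA) in Tubb2a and Tubb4b, 2 of 8, against 13.6%. In Tubb4b the TATA match lies in the 50 bases after the start, outside the printed stretch. The AP-1 site (TGANTCA) and the CArG box were in none of the 8, against 7.81% and 1.63% of all. Both strands were searched for every motif. A match is only a match of letters.

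Other tubulin and microtubule genes were read from lists by function, beside a median log2 fold change of 0.05 over all genes in WT, of which 17.9% were called higher and 12.8% lower. Against those shares the counts for the gamma-tubulin ring, the modifying enzymes and the motor subunits are near or below the background, and the 7 cofactors are too few to read a share from. Of 6 further alpha and beta genes, only Tuba8 and Tubb4a had reads enough to be tested. Tuba8, an alpha isoform, had 5.34 CPM in O1, 8.66 CPM in O3 and 2.76 CPM in N3 of WT cerulein, against 0.323 CPM in W1, 0.359 CPM in K5 and 0.669 CPM in R3 of WT saline. It rose in WT with a log2 fold change of 3.58 ± 0.83 (edgeR adjusted p = 0.0120) and was at 5.13 CPM in C2, 4.53 CPM in L4 and 0.422 CPM in C3 of KO cerulein, against 0.417 to 1.09 CPM in KO saline. Tuba3b and Tubal3 had no counts in any library.

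Of 12 genes of gamma, delta and epsilon tubulin and the gamma-tubulin ring, 2 fell, 0 rose and 10 did not pass. The 2 were Tube1, epsilon tubulin of the centriole, at -2.35 ± 0.75, and Tubd1, delta tubulin, at -1.59 ± 0.47, both scarce, at most 0.757 CPM for Tube1 and 2.20 CPM for Tubd1 in any library. Of 7 genes listed as folding cofactors, Tbce rose by 1.03, Tbcel fell by 1.52 and Arl2 fell by 0.76, and 4 did not pass. Of 14 subunits of the chaperonin CCT and prefoldin, which fold new tubulin and actin, 5 rose and 9 did not pass, with Pfdn4 at 1.91, Cct3 at 0.83, Cct8 at 0.64 and Cct4 at 0.58, and a list median of 0.45. None of the 3 genes of tubulin mRNA autoregulation passed. Ttc5, which reads the nascent chain, was at 0.10 ± 0.27, and Cnot11, its link to deadenylation, at -0.29 ± 0.26.

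Microtubule-associated and plus-end proteins had the most calls, 10 higher and 1 lower of 20, with a list median of 0.68. Map1s, Map1b and Map4 bind along microtubules and rose by 2.81, 2.28 and 1.68, and Clasp2, a plus-end protein, rose by 1.58. Of 18 enzymes that modify the tubulin tail or lysines, 15 could be tested and 2 rose: Ttll7, a polyglutamylase, by 1.501 and Ttl, which puts back the terminal tyrosine, by 1.13. Of 13 stathmins, severing enzymes and depolymerases 8 could be tested. Kif2a, a depolymerising kinesin, rose by 0.88 and Stmn1, which sequesters dimers, fell by 1.005. Of 21 motor subunits 3 rose and 1 fell: the dynein chains Dync1li1 by 1.83 and Dynll1 by 1.27 and the kinesin light chain Klc1 by 0.99 rose, and Klc4 fell by 1.49. All these values are WT log2 fold changes, and of these 22 calls with Tuba8 included, edgeR adjusted p lay between 0.00918 and 0.0366. When 1 WT library was left out, 8 of the 22 kept their call throughout (Tuba8, Tbcel, Pfdn4, Map1s, Kif2a, Dync1li1, Klc4 and Dynll1), and the other 14 lost it without at least 1 of W1, K5, R3, O1, O3 and N3, with edgeR adjusted p up to 0.120. The count of associated proteins called higher then ranged from 3 to 10 and that of CCT and prefoldin from 1 to 4. In KO without C3 the counts called higher were 9 of 20 associated proteins, 5 of 14 CCT and prefoldin genes and 4 of 21 motor subunits, beside 18.7% of all genes, and with C3 they were 0.

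**Figure D5:**
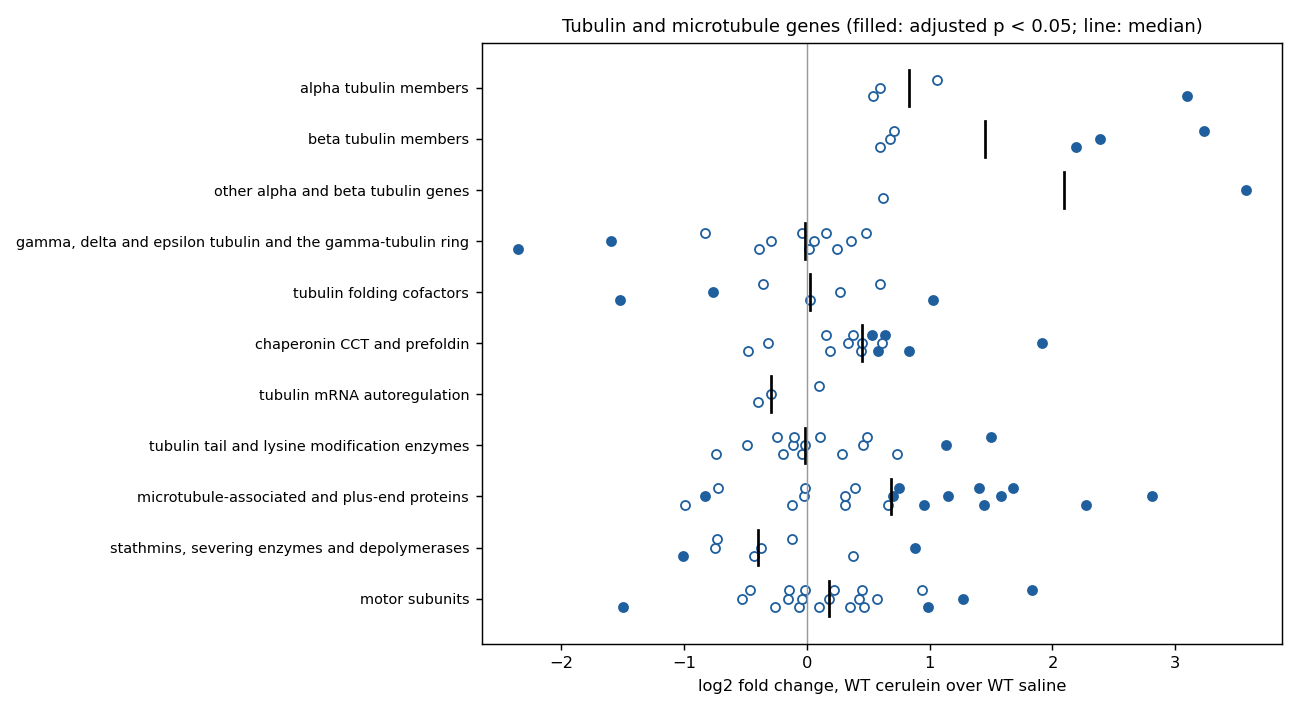
WT log2 fold change of cerulein over saline for the tested genes of each list, 1 point a gene. Filled points passed an adjusted p of 0.05, and the line marks the list's median. The 4 alpha and 6 beta genes described here all lie right of 0, while gamma-tubulin ring genes and tail-modifying enzymes are spread around 0.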

How the data were processed

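Gene counts of 12 whole-pancreas libraries from an Illumina stranded total-RNA kit, per the labels' protocols, were used as deposited. HTSeq, DESeq2 and mm10 are named in the submitters' processing notes. For the aligner, the annotation release, the strand setting and the handling of multiply matching reads, each is not given in the sources used here. Totals were 18292997 to 32158629 counts. Of 49585 Ensembl IDs, 49326 matched GENCODE M21. Groups follow the labels, with 3 animals each. Nothing pairs them across groups.

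edgeR 4.0.16 in R 4.3.3 filtered genes (filterByExpr, leaving 14329), scaled by TMM and tested with a robust quasi-likelihood fit over all 12 libraries with Benjamini-Hochberg adjustment at 0.05. The standard error is the log2 fold change over the square root of F. The fit was checked on simulated counts. Alternatives were DESeq2 1.42.0, library totals, TMM without the 50 most abundant genes, no filter, only the groups compared, each library left out, and coding length. A length counting only windows shared with no other gene on the same strand was chosen after seeing the data.

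The members and lists were chosen with earlier results of these data known. Named besides the 10 members are up to 4 called genes per pathway list with the largest WT fold change (the 2 with most counts where none was called), marker genes with most counts, and the 2 genes of nearest profile to the alpha and to the beta member of highest level. Sequences come from GENCODE M21 transcripts and RefSeq promoters (GRCm38.p6). Some coding sequences are not reported here.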

Additional observations from a re-analysis of the deposited data

How the results depend on the processing

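In WT, 4 members were called higher by edgeR. With no filter on low counts 2 were (Tuba1c and Tubb4b), and over fits leaving out 1 library the count ranged from 2 to 5, with 2 whenever W1, K5, R3, O1 or O3 was left out. A fit of only the WT groups called 6, with Tuba1b and Tubb5 added. Library totals in place of TMM called 5, with Tuba4a added. In KO, 0 were called with all libraries and 4 by DESeq2, and the leave-out counts ranged from 0 to 5, with 5 only without C3. The genotype and interaction counts stayed at 0 under every alternative run. Some members that did not pass changed sign. Tuba1b in KO was at 0.13 with library totals in place of TMM. Over the fits leaving out 1 library, the log2 fold change ran from -0.20 to 0.93 for Tuba1a in WT, and in KO from -1.10 to 0.38 for Tuba1a, -0.32 to 0.55 for Tuba1b, -0.36 to 0.54 for Tubb2b and -0.16 to 0.65 for Tubb5. The cause was not tested. Library totals moved the median of all genes to 0.34 in WT and 0.20 in KO. CCT and prefoldin genes called higher in WT numbered 8 by DESeq2 (20.2% of all genes) and 9 without C3 (21.3%), against 5 (17.9%). Without C3, 1 of them was called lower, beside 16.6% of all genes. No paired analysis was possible because each animal code occurs in 1 group only. With 3 animals a group and 1 cerulein library standing with saline, small differences were not detectable, and Tubb3 and Tubb2b rest on 5 to 95 counts a library.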

Other observations

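The count ratio of near-identical neighbours also differed by treatment. Tuba1c over Tuba1b was 3.58 in C2, 4.68 in L4 and 1.20 in C3 of KO cerulein, against 0.442 to 0.977 in KO saline, and 2.26 to 4.81 in WT cerulein, against 0.771 to 0.955 in WT saline. Tubb2a over Tubb2b was 20.2 in C2, 14.4 in L4 and 5.5 in C3 of KO cerulein, against 4.35 to 6.80 in KO saline, and 11.2 to 23.1 in WT cerulein, against 3.36 to 5.89 in WT saline. Of the other tubulin genes not tested, Tubb1 had 17 counts and Tuba3a 4 counts over all 12 libraries.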
